A study of Mus musculus with 6 samples.

Results

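The regions described here are stretches of the mouse genome where a peak was listed in every library of a reprogramming series, for 2 cytosine marks at 3 stages. They were found by taking each fibroblast 5-hydroxymethylcytosine (5hmC) peak and keeping those that share at least 1 bp with a peak in each of the other 5 lists. This left 3190 regions of 42301 fibroblast 5hmC peaks, or 7.54% of that list (95% Wilson interval 7.29 to 7.80). All intervals below are of this kind and cover counting error only. The regions were chosen by the deposited peak calls themselves. Their overlap, width and score are therefore given as a description, without a test.

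DNA was immunoprecipitated with a polyclonal antibody against 5hmC or a monoclonal antibody against 5-methylcytosine (5mC), with 1 library per stage and mark. The fibroblasts, at passage 4, came from mice made from iPS cells carrying inducible Tet1, Sox2, Klf4 and c-Myc. The day-3 cells were such fibroblasts after 3 days of doxycycline in ES medium, and the iPS cells were a line from this system at passages 10 to 15, grown on feeder cells that were cleared by brief plating. All groups had the OG2-GFP/Rosa26-M2rtTA background, which carries a green reporter of Oct4 and the doxycycline-responsive transactivator at the Rosa26 locus. The iPS group is a single line, and the stages also differ in medium and passage. The depth of each library is unknown. With no replicates, every comparison below is between single libraries.

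5mC is the main cytosine modification of mammalian DNA, is written mostly at CpG sites, and is dense over repeats and silenced sequence. Tet enzymes, Tet1 among them, oxidise 5mC to 5hmC, so that a stretch must first carry 5mC to gain 5hmC. A population of cells can show both marks at a locus, because copies differ between cells or because neighbouring cytosines differ, and antibody capture over a fragment cannot separate these cases. DNA present in many copies, such as mitochondrial DNA or satellite arrays near centromeres, adds reads from all its copies at the few positions where the assembly holds it. The peaks are on mm9, and no annotation or sequence of that build was used here, so the regions are given by position and not by gene or repeat class. How many of them hold repeated sequence was not tested.

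Counted by the number of other lists met, presence in all 5 was the least frequent class for a fibroblast 5hmC peak. The classes of 1 to 4 lists each pool several combinations of lists, and the most frequent combination of 4 held 2315 peaks. Of the fibroblast 5hmC peaks, 9330 met no peak of any other list, 10304 met a peak in 1 other list, 8297 in 2, 5985 in 3 and 5195 in 4. The 3190 regions stand at the end of this series. The count was 738 with a score of at least 100 required in each list, and 831 when every list was cut to its 42301 top-scoring peaks, so it depends on how many weaker peaks are admitted.

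The iPS 5mC and day-3 5hmC lists set the size of the group more than the others did. Over the whole fibroblast 5hmC list, 24.7% of the peaks met an iPS 5mC peak, 27.2% a fibroblast 5mC peak, 35.9% a day-3 5hmC peak, 41.4% a day-3 5mC peak and 63.7% an iPS 5hmC peak. Of the 5195 peaks present in 4 other lists, 2315 (44.6%) lacked the iPS 5mC list and 2034 (39.2%) lacked the day-3 5hmC list. The fibroblast 5mC list was the absent one for 583, the iPS 5hmC list for 166 and the day-3 5mC list for 97. Without the iPS 5mC list as a condition there would be 5505 regions, and without the day-3 5mC list 3287. A missing peak was seldom a near miss in position. Of the 5195, 924 (17.8%) had a peak of the absent list within 1000 bp, and the median distance was 4648 bp. The lists hold no signal weaker than their lowest-scoring peak, so whether a missing peak was a near miss in score was not tested.

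**Figure D1:**
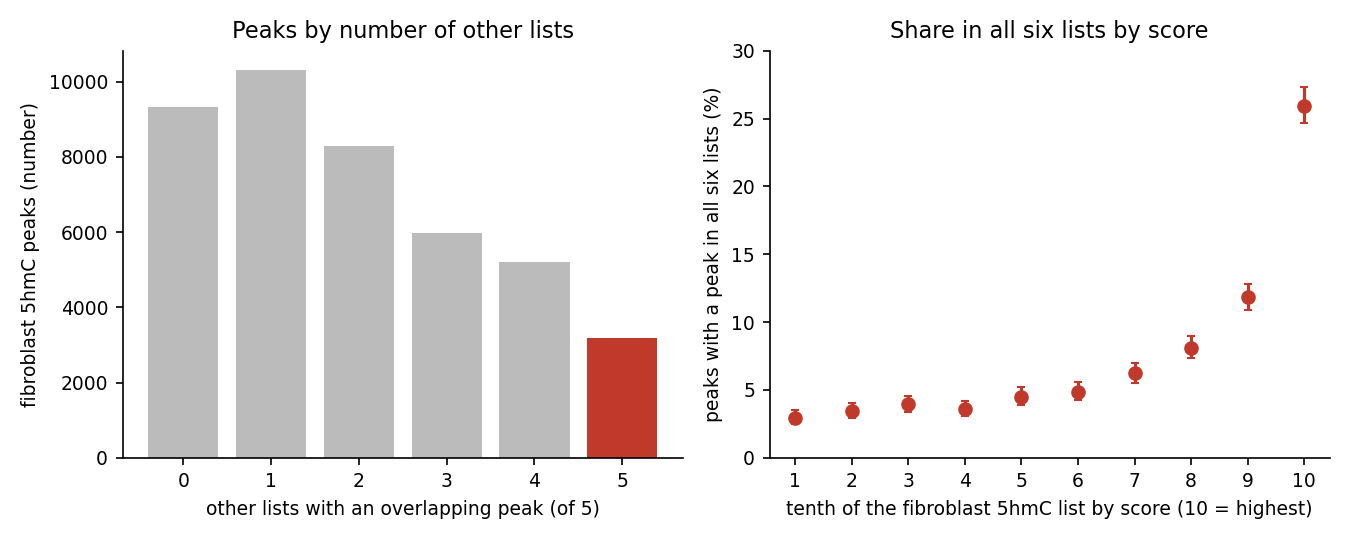
Left, the number of fibroblast 5hmC peaks by how many of the other 5 lists hold an overlapping peak, with the 3190 regions in red. Right, the share of peaks that are such regions in each score decile of the fibroblast 5hmC list, with 95% Wilson intervals; it is 2.96% in the lowest decile and 26.0% in the highest.

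The regions were mostly of ordinary width but ranked high in their own list. The fibroblast 5hmC peak of a region had a median width of 963 bp, against 805 bp for the other fibroblast 5hmC peaks. Peaks of at least 3 kb numbered 39 among the regions (1.22%) and 14 among the other peaks (0.0358%), and the widest reached 29171 bp and 7538 bp. The median score was 167 in the regions and 83.06 in the other peaks. Scores are the authors' values from their peak caller and rank peaks within a list. The share of peaks that were regions was 2.96% (2.49 to 3.51) in the lowest score decile of the list and stayed below 5% up to decile 6, at 4.87%. It was 6.22%, 8.11% and 11.8% in the next 3 deciles and 26.0% (24.7 to 27.3) in the highest. Even there, most of the peaks lacked a counterpart in at least 1 other list.

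The peaks of the 6 lists lay on top of each other rather than touching at their edges. In 3060 of the 3190 regions (95.9%) at least 1 base was covered by all 6 lists at once, and the stretch so covered had a median of 658 bp (quartiles 510 and 779), or 69.03% of the region. In the other 130 regions every list was met, but no base was common to all 6. Summed over the regions, 2.17 Mb of 3.52 Mb lay in all 6 lists. The share of a region covered by a single list had a median of 93.1% for fibroblast 5mC, 96.8% for day-3 5mC and 87.9% for iPS 5mC, and of 89.6% for day-3 5hmC and 97.6% for iPS 5hmC. The fewest regions covered to less than 50% were found with the iPS 5hmC list (70, or 2.19%) and the most with the iPS 5mC list (333, or 10.4%). Most regions met a single peak in each list, from 3002 in the day-3 5mC list to 3089 in the iPS 5mC list. In the 2712 regions with a single peak in every list, the outermost and innermost left edges lay a median of 469 bp apart and the right edges 491 bp apart.

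The limit of 1 bp decided few cases. Only 15 regions shared 10 bp or less with their least overlapping list and 66 shared 50 bp or less. The 2 regions with the least overlap, at chr9:40506803-40507979 and chr9:47920058-47920957, shared 2 bp with an iPS 5mC peak and with a fibroblast 5mC peak. Just outside the rule, the peaks at chr5:106302139-106303130 and chr9:63571297-63572379 were in 4 other lists and touched an iPS 5mC peak end to end without a shared base. These 4 peaks scored 207.45, 88.88, 152.99 and 486.79 in the fibroblast 5hmC list.

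The regions ranked above the middle of every list, with a different margin in each. In the fibroblast lists their median score percentile was 80.1 for 5hmC and 76.8 for 5mC. At day 3 it was 61.5 for 5hmC and 86.7 for 5mC, and in iPS cells 88.4 for 5hmC and 74.6 for 5mC. The middle of a list is the 50th percentile by definition, but peaks met by other lists can rank above it without being regions. In the fibroblast 5hmC list, the median percentile was 65.8 for peaks met by 4 other lists and 61.1 for those met by 3. Such values were not made for the other lists. In the iPS 5hmC list, 1491 regions (46.7%) had a peak above the 90th percentile, against 586 (18.4%) in the day-3 5hmC list. The list in which a region ranked lowest was most often day-3 5hmC, in 1186 regions (37.2%), and least often day-3 5mC, in 130 (4.08%). Counted from the other side, the regions took up 5.31% of the iPS 5mC peaks (5.14 to 5.49), 3.15% of the fibroblast 5mC peaks, 2.83% of the day-3 5hmC peaks, 2.02% of the day-3 5mC peaks and 1.92% of the iPS 5hmC peaks.

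**Figure D2:**
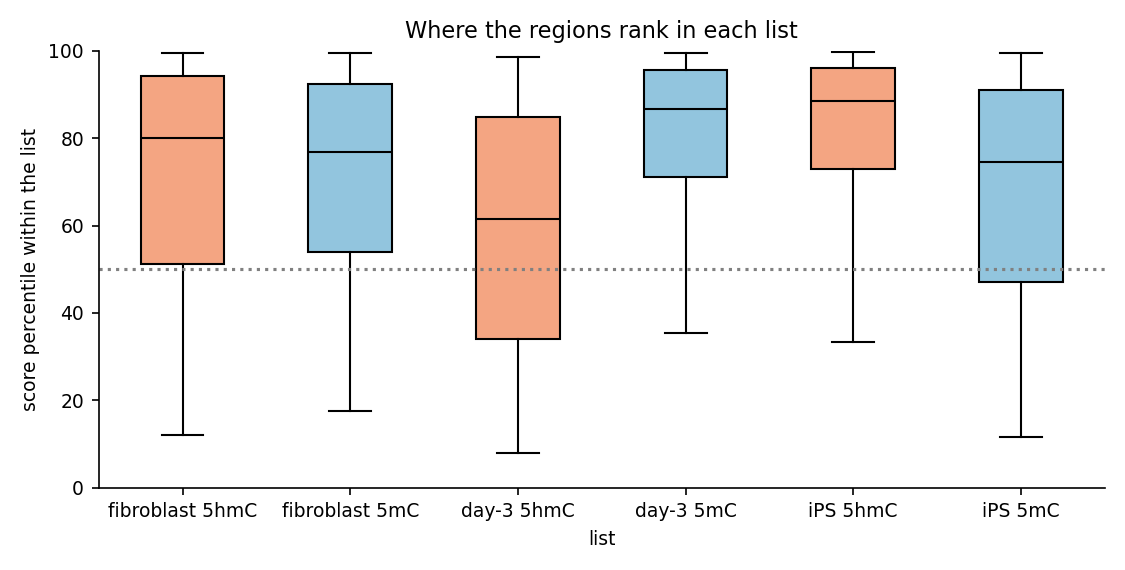
Score percentile of the regions within each of the 6 lists. Boxes span the quartiles with the median as a line, whiskers the 5th to 95th percentile of the 3190 regions, 5hmC lists in orange and 5mC lists in blue, and the dotted line marks the middle of a list; the medians run from 61.5 (day-3 5hmC) to 88.4 (iPS 5hmC).

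A high score in a list went with a high score in some lists and not in others. The closest pair was fibroblast and day-3 5mC, with Spearman's rho of 0.79 across the 3190 regions. Fibroblast 5mC against iPS 5mC gave 0.50, and day-3 5mC against iPS 5mC 0.42. The 5hmC lists were less alike, with 0.11 between fibroblasts and day 3, 0.26 between fibroblasts and iPS cells and 0.34 between day 3 and iPS cells. Within a stage, 5hmC against 5mC gave 0.0035 for the fibroblast pair, 0.29 for the day-3 pair and 0.35 for the iPS pair. Some pairs that differ in both mark and stage lay higher. Fibroblast 5mC and day-3 5mC against iPS 5hmC each gave 0.40. The other pairs of this kind ran from -0.024 (fibroblast 5hmC against day-3 5mC) to 0.24 (fibroblast 5mC against day-3 5hmC). These are descriptions across regions, which share libraries and local base composition and are not replicates. Between fibroblasts and day 3, rho was higher for 5mC than for 5hmC in the wider lists too. Across the 93254 fibroblast 5mC peaks that met a day-3 5mC peak, rho was 0.69. Across the 15189 fibroblast 5hmC peaks that met a day-3 5hmC peak it was -0.0033. The order of the pairs was not kept throughout. Fibroblast 5hmC against fibroblast 5mC gave 0.049 across the 11486 fibroblast 5hmC peaks that met one, above the value with day-3 5hmC.

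Very high scores in every list were found in few of the regions. Classes of the lowest of a region's 6 scores, set after the values were seen, held 1013 regions (31.8%) below 60 and 1439 (45.1%) from 60 to 100. Another 645 (20.2%) fell between 100 and 300 and 57 (1.79%) between 300 and 1000. In 36 regions (1.13%) all 6 scores were at least 1000, and in 16 all 6 were at least 3100, a value that recurs at the top of every list. These 36 regions were wide, with a median of 3890 bp against 864 bp in the lowest class, and 92.1% of their length lay in all 6 lists, against 64.1%. Of the 36, 27 had another region within 10 kb, whereas 148 of 1013 (14.6%) had one in the lowest class. They were unevenly spread over the chromosomes. Of the 36, 7 each lay on chromosomes 11 and Y, 5 each on 2, 9 and 17, and 2 on X. Chromosomes 1, 6, 15, 18 and the mitochondrial genome held 1 each.

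The highest-ranking regions scored at or near 3100 in all 6 libraries. A tie of 23 regions shared the highest rank in their weakest list, with 6 on chromosome Y, 5 on 17, 4 on 11, 2 on 2 and 1 each on 1, 6, 9, 15, X and the mitochondrial genome. The first in genome order was chr1:90151099-90166878, a peak of 15.8 kb that scored 3227.04 in fibroblast 5hmC and 3100 in each of the other 5 lists. The next were a pair at chr2:98502093-98503490 and chr2:98506242-98507910, 1398 and 1669 bp wide, which scored 3100 in every list. At chr6:47596697-47601708 the score was 2996.17 in iPS 5hmC and 3100 in each of the other 5, and at chr9:35112467-35113458, which was 992 bp wide, it was 3100 in all 6. Mitochondrial DNA, which is present in many copies per cell, was chosen for mention after its values were seen. It held 3 fibroblast 5hmC peaks, of which 1 was a region. Its single region ran from base 6 to 4931, scored 3100 in all 6 lists and was covered by all 6 over 4924 of its 4926 bp.

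The widest regions were not all equally present at each stage. The region at chr11:3075034-3100414 spanned 25.4 kb, of which 22.5 kb lay in all 6 lists, the longest such stretch. Its neighbours at chr11:3059381-3074839 and chr11:3031262-3049044 held the next longest, with 15.2 and 14.6 kb in all 6 lists. The widest region of all, chr1:90121884-90151054, spanned 29.2 kb. The 5mC peaks of the fibroblast, day-3 and iPS lists covered 29.0, 26.4 and 27.9 kb of it, and the 5hmC peaks of the day-3 and iPS lists 17.2 and 15.0 kb. The region at chr3:25427960-25446339, 18.4 kb wide, was covered over 18.2 kb by fibroblast 5mC and 17.7 kb by iPS 5mC, but over 7.97 kb by day-3 5mC, 1.88 kb by day-3 5hmC and 3.54 kb by iPS 5hmC. Only 621 bp of it lay in all 6 lists.

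Regions less than 10 kb apart formed runs. Of 2863 runs, 2615 were a single region, 207 a pair and 28 a triplet, and the most crowded held 13 and 11 regions. The longest run, at chr1:90107916-90206960, was 99.0 kb long with 11 regions. Its 5hmC cover was 93.1 kb in the fibroblast list, 53.6 kb in the day-3 list and 51.2 kb in the iPS list, and its 5mC cover 94.2, 81.9 and 87.4 kb. The 5hmC cover was thus lower in both later libraries than in the fibroblast library. The fibroblast list had 13 5hmC peaks in the run, the day-3 list 23 and the iPS list 28, and the 5mC lists had 12, 26 and 19. The second run, at chr11:3027170-3100414, was 73.2 kb long with 7 regions and was covered almost alike everywhere. Its 5hmC cover was 71.1 kb in the fibroblast list, 69.7 kb in the day-3 list and 63.6 kb in the iPS list, and its 5mC cover 70.1, 69.7 and 69.9 kb. Of the bases in any list there, 87.7% lay in all 6.

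The third run, at chr9:2999850-3038585, held 13 regions in 38.7 kb. The lists covered from 17.1 kb (day-3 5hmC) to 23.9 kb (fibroblast 5mC) of it, and 66.5% of the bases in any list lay in all 6. In the run on chromosome 1 this share was 38.2%, and over all 3095 joined stretches that hold a region, 26.6%. The runs on chromosomes 9 and 11 lie at the low-coordinate end of their chromosomes, which in the mouse is the end that carries the centromere.

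**Figure D3:**
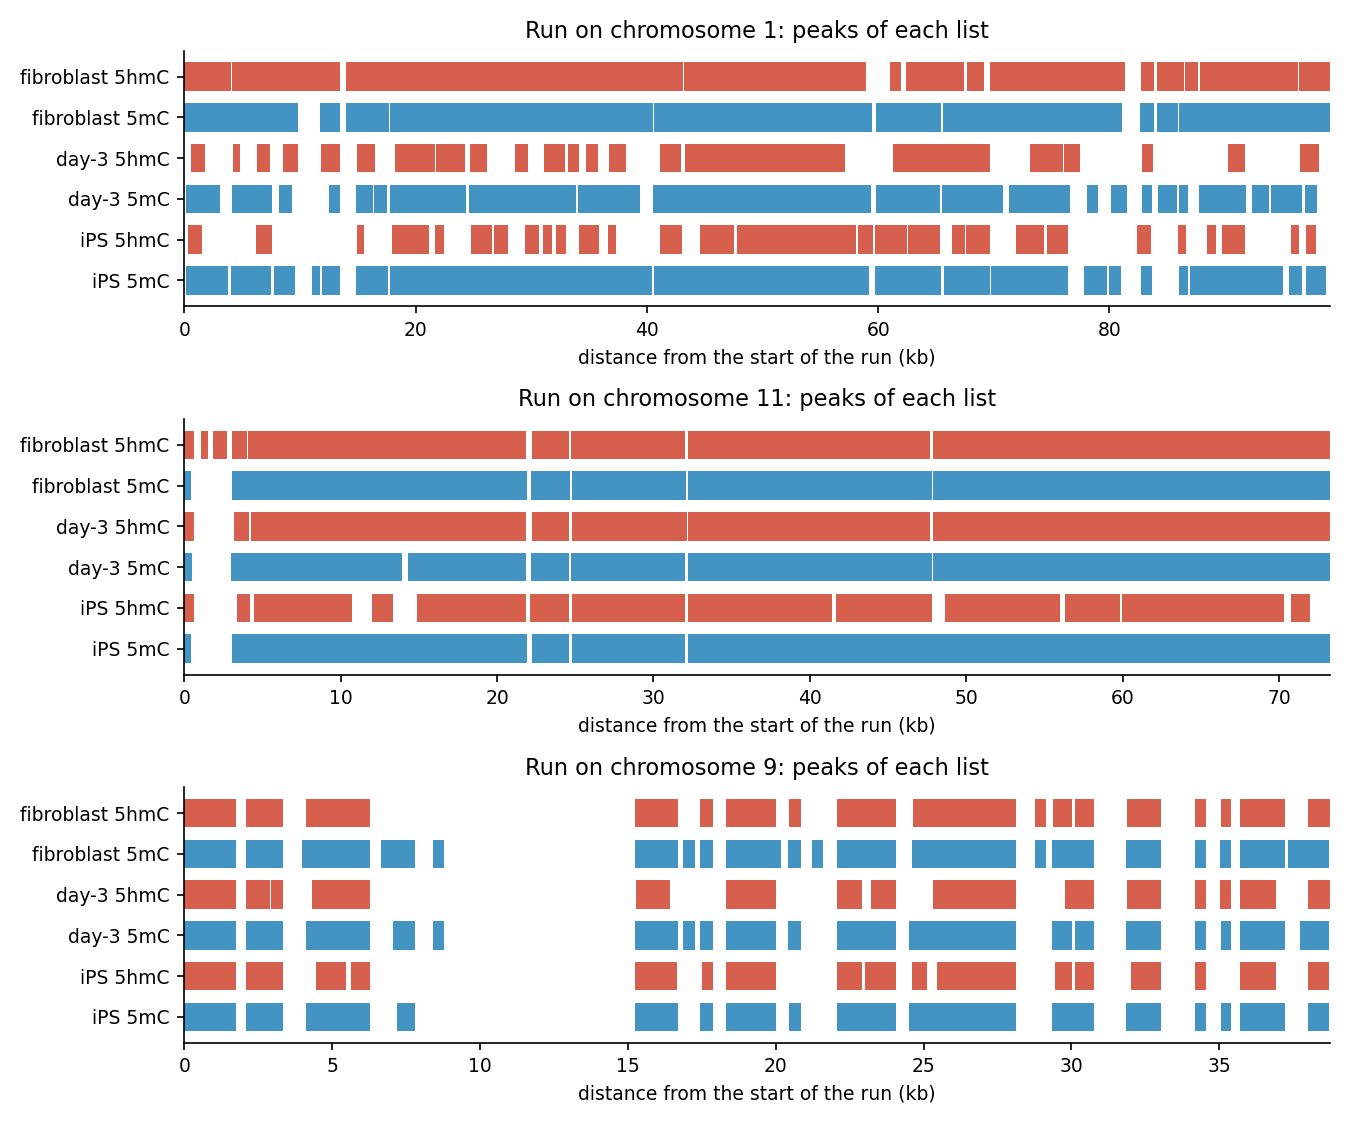
Peaks of each list along the 3 longest runs of regions, in kb from the start of the run, with 5hmC lists in red and 5mC lists in blue. On chromosomes 11 and 9, 87.7% and 66.5% of the bases in any list are in all 6, and on chromosome 1 this share is 38.2%.

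Windows of 100 kb gave a similar picture of where the regions gather. Regions occurred in 2433 windows, 1884 of which held a single region and 17 of which held 5 or more. The most crowded were chr9:3000001-3100000 with 13 regions, chr1:90100001-90200000 with 10, chr11:3000001-3100000 with 8 and the last listed X window, chrX:166400001-166500000, with 8. In the X window the 5hmC cover of the fibroblast, day-3 and iPS lists was 18.98, 25.4 and 26.9 kb, and the 5mC cover 23.2, 26.9 and 31.6 kb. A tie of 13 windows followed with 5 regions each, of which the first in genome order was chr2:166400001-166500000. Its regions had lowest scores between 55.38 and 153.41, and the lists differed widely there. The 5hmC cover of the fibroblast, day-3 and iPS lists was 9.55, 11.8 and 48.9 kb and the 5mC cover 40.9, 48.2 and 28.7 kb, with 5.92% of the bases in any list common to all 6.

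Of the regions, 1835 (57.5%, 55.8 to 59.2) had another region within 100 kb and 575 (18.0%) within 10 kb. For all fibroblast 5hmC peaks and their own neighbours the shares were 95.1% and 46.8%, in a longer list that gives more neighbours by number alone. Any fibroblast 5hmC peak lay within 10 kb of 59.5% of the regions and of 45.8% of the other peaks. Leaving out Y and the mitochondrial genome, 96 regions (3.03%, 2.49 to 3.68) lay within 3 Mb of the first listed position of their chromosome. The share was 2.13% (1.99 to 2.27) for the other fibroblast 5hmC peaks. Of the 96 regions, 13 lay in the window chr9:3000001-3100000 and 8 in chr11:3000001-3100000, so the share rests in part on these 2 windows. For the last listed position the shares were 4.04% (3.41 to 4.78) and 3.44% (3.26 to 3.62).

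Autosomes held 3149 of the regions (98.7%) and 41931 of the 42301 fibroblast 5hmC peaks. Between autosomes the density ranged from 0.760 per Mb on chromosome 3 to 2.11 per Mb on chromosome 11, and the share of fibroblast 5hmC peaks that were regions ranged from 5.58% on chromosome 1 to 10.3% on chromosome 17. Chromosome 7 had the most regions (275), followed by chromosomes 2 (272), 5 (257) and 11 (251). These were 9.97%, 8.52%, 7.82% and 9.81% of their fibroblast 5hmC peaks, against 7.54% of the whole list. Such counts partly follow the number of peaks listed on a chromosome. Chromosome X held 21 regions, or 0.130 per Mb. Since it also held few fibroblast 5hmC peaks, 297, the share of them that were regions was 7.07% (4.67 to 10.6), an interval that contains the autosomal 7.51%. On chromosome Y, where the peaks reach over 2.86 Mb, 19 of 70 peaks were regions (27.1%, 18.1 to 38.5). Their median width was 3008 bp and their median fibroblast 5hmC score 1814.48. The 21 regions on X had medians of 1168 bp and 670.19. On single autosomes the median width was 898 to 999.5 bp and the median score 127 to 207.

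**Figure D4:**
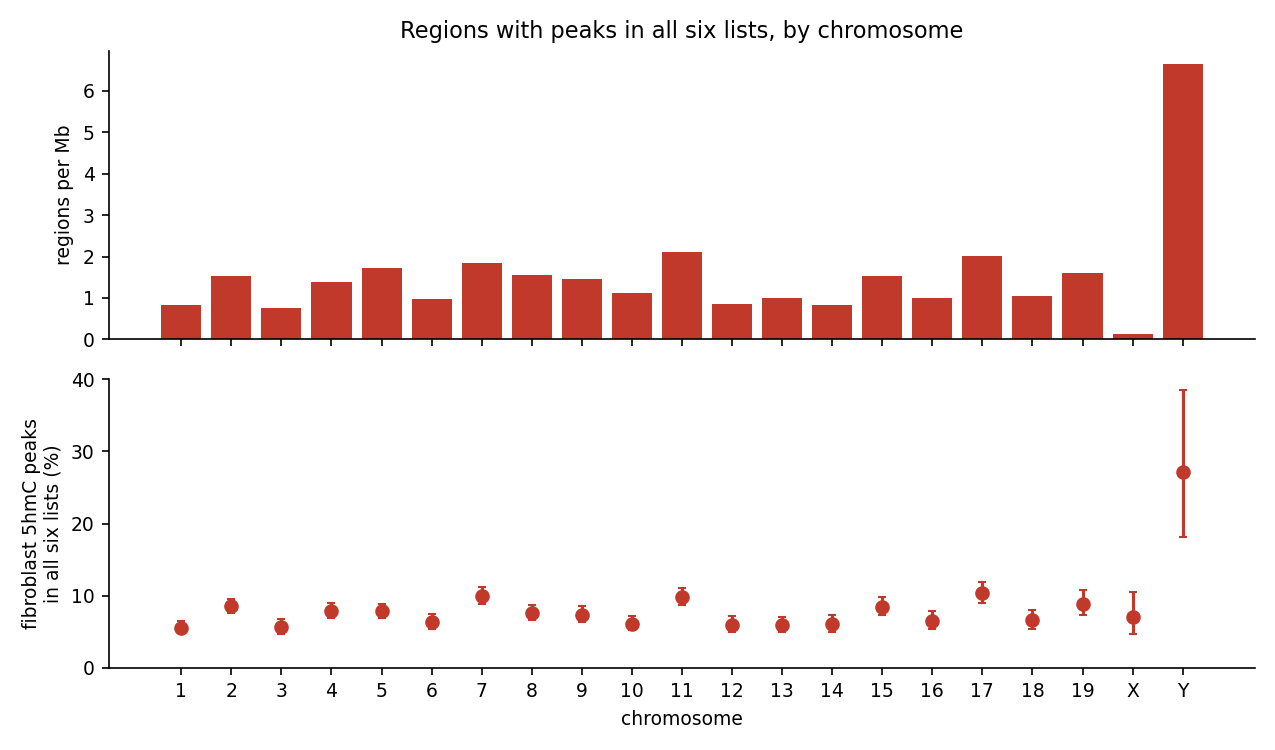
Regions per Mb of the span covered by the lists (top) and percent of the fibroblast 5hmC peaks of each chromosome that are regions, with 95% Wilson intervals (bottom). Of the nuclear chromosomes drawn, X has the lowest density (0.130 per Mb) with a share of 7.07%, and Y is highest in both (6.63 per Mb, 27.1%).

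Away from the peaks themselves, all 6 lists covered more of the surroundings of the regions than of those of other fibroblast 5hmC peaks. The peaks that the rule required can reach past the fibroblast peak, so positions inside the joined stretch of overlapping peaks that holds the region were left out, a step chosen after the values were seen. At 5 kb this removed 148 positions beside the regions and left 6232. Neighbouring positions are not independent, and no test is given. At 5 kb from the centre, the fibroblast, day-3 and iPS 5hmC lists covered 4.64% (4.14 to 5.19), 15.6% and 24.97% of the positions left, against 2.95%, 8.41% and 14.2% beside the other fibroblast 5hmC peaks. The 5mC lists covered 16.6% (15.7 to 17.5), 23.3% and 9.42%, against 8.44%, 12.4% and 4.58%. At 50 kb, where no position fell in such a stretch, 5hmC covered 3.21%, 12.8% and 20.5%, against 2.54%, 8.15% and 13.6%. There 5mC covered 13.8%, 19.1% and 6.99%, against 8.14%, 12.1% and 4.45%. The intervals of the regions and the other peaks did not overlap at 5, 10, 20 or 50 kb in any of the 6 lists. As positions are not independent, this is a description only. Positions that fell on another region, where the rule requires all 6 lists, were kept. Of the regions, 57.5% had another within 100 kb, and how much these add to the cover was not tested.

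Without the 36 regions that scored at least 1000 in every list, the cover at 5 kb, counted in the same way, was 4.42%, 15.5% and 24.9% for 5hmC and 16.4%, 23.3% and 9.21% for 5mC at the 3 stages.

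**Figure D5:**
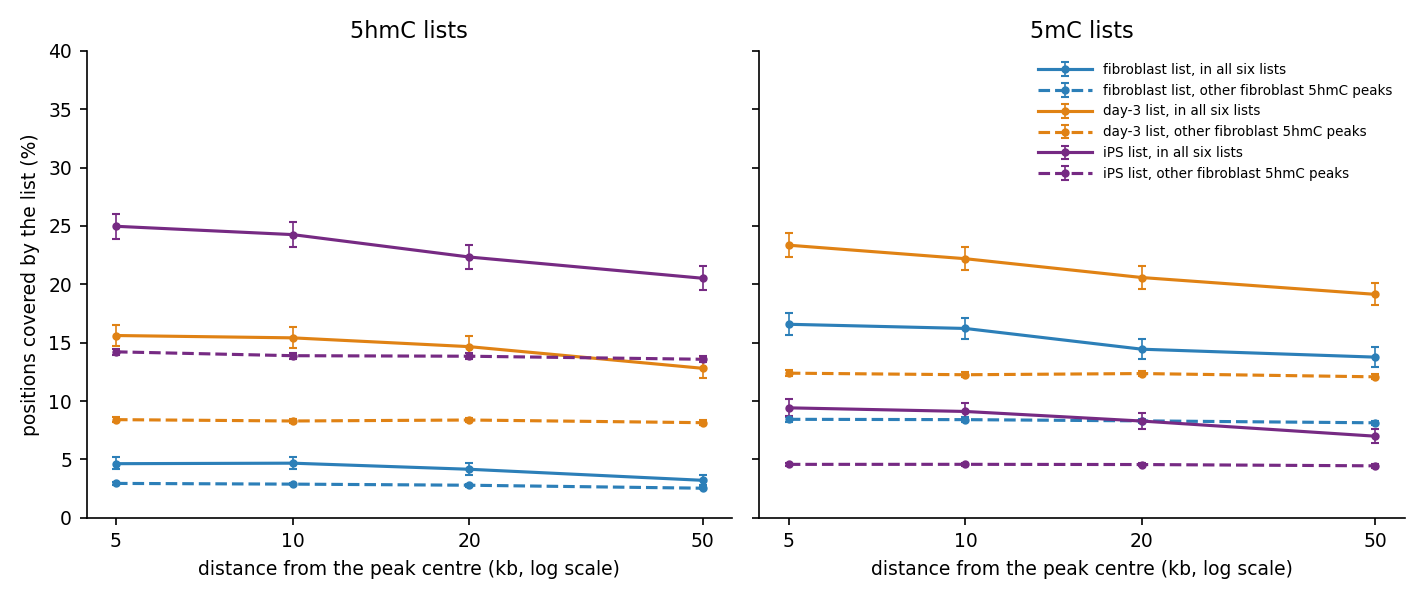
Percent of positions covered by each list at 5 to 50 kb from the peak centre (log axis), for the 3190 regions (solid) and the 39111 other fibroblast 5hmC peaks (dashed), by stage, with 95% Wilson intervals; positions inside the joined stretch that holds the peak are left out. Solid lines lie above the dashed line of the same list at every distance shown.

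Peaks present in every list of a single mark were compared in the same way. The 9199 fibroblast 5hmC peaks present in all 3 5hmC lists but not in all 3 5mC lists had 14.6% of positions at 5 kb covered by day-3 5hmC, 20.4% by iPS 5hmC and 10.8% by fibroblast 5mC. The 2701 peaks present in all 3 5mC lists but not in all 3 5hmC lists had 8.28%, 20.8% and 14.5%. The regions had 15.6%, 24.97% and 16.6%, and all fibroblast 5hmC peaks outside the regions, both sets included, 8.41%, 14.2% and 8.44%. The day-3 5hmC cover beside the peaks of all 3 5mC lists was thus not above that of the peaks outside the regions. This set was chosen for lacking at least 1 5hmC list. At its peak centres day-3 5hmC covered 5.52%, against 28.3% for the peaks outside the regions. Its day-3 5hmC cover nearby is therefore not independent of how the set was chosen. The intervals for day-3 5hmC overlapped between the regions (14.7 to 16.5) and the peaks of all 3 5hmC lists (14.1 to 15.2). Beside the peaks of all 3 5mC lists, fibroblast 5hmC covered 4.19% (3.68 to 4.76) and iPS 5mC 8.95% (8.22 to 9.75). These intervals overlapped those of the regions (4.14 to 5.19 and 8.72 to 10.2), so the higher cover by these lists was not particular to the regions. In the remaining lists the intervals of the regions and of the peaks of all 3 5mC lists did not overlap at 5 kb.

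To compare the stages without fibroblast 5hmC as the measure of length, overlapping peaks of all lists were joined, and 3095 joined stretches with a median length of 2017 bp held the regions. Every list has a peak in each of them, so that only the covered length can differ. The fibroblast 5hmC list covered a mean of 54.4% of a stretch, the day-3 list 63.7% and the iPS list 76.8%. The 5mC lists covered 70.1%, 76.5% and 60.3%. The covered length depends on depth as peak numbers do. In fibroblasts 5hmC covered more than 5mC in 909 stretches and less in 2182, at day 3 more in 941 and less in 2147, and in iPS cells more in 2222 and less in 866. Of the stretches that differed, 5hmC thus covered more in 29.4%, 30.5% and 72.0% at the 3 stages. For the joined stretches without a region, where a list may have no peak, these shares were 26.4%, 40.3% and 83.2%.

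Followed between stages, iPS 5hmC covered more bases than fibroblast 5hmC in 2280 stretches and fewer in 812, so that 73.7% of those that differed had more (72.2 to 75.3). Day-3 5hmC covered more than fibroblast 5hmC in 57.8%. iPS 5mC covered more than fibroblast 5mC in 29.2% (27.6 to 30.8), and day-3 5mC in 66.6%. The joined stretches without a region went the same way in each of these 4 contrasts, with 85.2%, 76.9%, 26.4% and 74.2%, so the directions are those of the lists as a whole. In those stretches a list may have no peak. For example, 13.1% of them had a fibroblast 5hmC peak and 18.4% an iPS 5mC peak. The shares of the regions were nearer to equality in each of the 4. The rule requires a peak of every list there, so this difference is not read as a property of the regions.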

How the data were processed

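Each deposited file lists the peaks of a single library by position, with a score for every peak from the authors' peak caller. Per the submitters' processing notes, CASAVA 1.8, Bowtie 0.12.7, MACS 1.4.1 and the mm9 build were used. The deposited score was taken as -10 log10 of a peak's p-value, a reading that no file header states, and served only for ranking and filtering inside a list. Its lowest value was 50 or 50.01 in each list. Use of an input library, duplicate handling and read numbers are likewise not given in the sources used here, and depth is unknown. Deeper libraries give more and wider peaks.

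Overlaps were counted from 1 bp in Python 3.11.15 (numpy 2.4.6, pandas 2.3.3, scipy 1.17.1, matplotlib 3.10.9). The counting was tested on simulated data in 3 runs of 42301 peaks, with 0 placed wrongly, and gave the counts of bedtools 2.31.1 for 5 of 5 list pairs. A region with several peaks of a list took the best score. Coordinates are on mm9, counted from 1.

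The members, the lists and the settings were chosen with earlier results of these data known. Named regions followed a written rule: the 5 with the best rank in their weakest list, the 3 widest, the 3 longest stretches in all lists, the 3 longest runs, the 5 fullest windows of 100 kb (ties to the first in genome order), and 2 on either side of the 1 bp limit. Genes and sequences were left out, as the gene tables at hand are on another build. With 1 library per stage and mark, no test between stages was made.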

Additional observations from a re-analysis of the deposited data

Results flagged for a closer look

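In the joined stretches that hold the regions, the 5hmC and 5mC lists differed in sign from fibroblasts to iPS cells, which singled these values out. The mean share of a stretch covered by 5hmC was 22.4 percentage points higher in iPS cells than in fibroblasts. For 5mC the iPS minus fibroblast difference was -9.86 percentage points. Joined stretches without a region went the same way, from a mean of 10.2% in fibroblasts to 46.2% in iPS cells for 5hmC and from 24.2% to 13.0% for 5mC. So did the whole lists, which covered 35.9 and 186.6 Mb for 5hmC and 110.8 and 59.7 Mb for 5mC. The signs are thus not particular to the regions. Single libraries stand behind each value, and whether the marks differ in this was not tested.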

How the results depend on the processing

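The count of regions stayed within 1.5 times the reported one when a larger overlap, the peak centre or a base common to all lists was required, when peaks were joined, on autosomes alone, and from whichever list it was made (3235 to 3615); joined stretches with a peak of every list, a count added after the data were seen, numbered 4027. It was 738 with a score of at least 100 and 831 with every list cut to the length of the shortest. The share of the fibroblast 5hmC list was 4.27% and 1.96% under these 2 settings, 5.93% with 50% overlap, 6.05% with the centre inside, 7.23% with a base common to all lists and 7.90% with peaks joined. The share of regions with another within 100 kb was 34.7%, 35.3%, 50.7% and 50.9% under the first 4 of these settings in the order given, and 18.0% within 10 kb and 94.5% within 1 Mb. Fewer regions leave fewer neighbours, by construction. Of 108 alternatives for the other values, 54 fell outside the interval of the reported value, or, for the cover at 5 kb, of that with positions inside the joined stretches kept (5.30%, 16.6% and 26.2% for 5hmC and 17.8%, 24.5% and 10.5% for 5mC); the median width ranged from 951 to 1135 bp, and the share on X or Y from 0.910% to 3.66%, highest with a score of at least 100. The feature classes planned for promoters were not run. No paired analysis was possible because each stage and mark has 1 library.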

Other observations

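The share of peaks scoring 3100 or more that lay on a region differed between the lists. In the iPS 5mC list 36 of the 36 peaks with such a score lay on a region, in the fibroblast 5hmC list 43 of 46 and in the fibroblast 5mC list 42 of 47. In the iPS 5hmC list it was 31 of 51. In the day-3 lists it was 48 of 285 for 5hmC and 68 of 210 for 5mC, so that most of the highest-scoring day-3 peaks lay outside the regions. These are 16.8% and 32.4%, where 2.83% and 2.02% of all day-3 5hmC and 5mC peaks lay on a region.

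Among the 19 regions on chromosome Y, 7 scored at least 1000 in every list, and 6 shared the highest rank in their weakest list. These values are those of the listed part of the chromosome, which spans 2.86 Mb.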
